A study of Mus musculus with 20 samples.

Results

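The genes described here are 10 components of the circadian clock, *Arntl*, *Clock*, *Per1*, *Per2*, *Per3*, *Cry1*, *Cry2*, *Nr1d1*, *Nr1d2* and *Dbp*. They were taken by name, with no cutoff on a measured value but with earlier results of these data known, and are 10 of the 35580 genes, and 44 of the 115270 transcripts, quantified by mRNA sequencing of the mouse hippocampus and neocortex. The 20 samples came from 13.5 month old male mice labelled as C57BL/6J, and each tissue is represented by 5 samples of WT and 5 of miR-324-null mice. The miR-324-null mice carry a constitutive CRISPR/Cas9 deletion of *Mir324*, made in mice of mixed C57BL/6 and CBA/ca origin that were then backcrossed to C57BL/6J. WT and miR-324-null mice were bred from heterozygotes and kept as lines, so that genotype and line cannot be told apart here. The study compared the genotypes in each tissue in order to find what the loss of the microRNA does to brain gene expression. The hour at which the tissues were taken is not given in the sources used here, so every level below stands for an unstated phase of the day. All samples are bulk tissue, in which fewer cells of a type and less RNA per cell cannot be told apart.

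The circadian clock of mammalian cells is a transcriptional feedback loop. BMAL1 (encoded by *Arntl*) and CLOCK pair on E-box DNA elements and activate the *Per* and *Cry* genes, whose proteins accumulate, enter the nucleus and repress that pair. A second loop is formed by the REV-ERB repressors (*Nr1d1* and *Nr1d2*), which compete with ROR activators for the RORE elements of *Arntl*, and the D-box activator DBP is a direct output of the loop. Outside the master clock of the hypothalamus the same loop runs in most tissues, the hippocampus and cortex included, and *Per1* is in addition known as an early response gene that neuronal activity induces through CRE elements.

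The mature miR-324 arms and the one match to their seeds among the 10 genes are shown first, because the miRNA is what the mutant mice lack. In the RefSeq sequences of GRCm38.p6, *Mir324* lies at chr11:70012043-70012131, and the capitals mark the seed, bases 2 to 8.
mmu-miR-324-5p: cGCAUCCCcuagggcauuggugu
mmu-miR-324-3p: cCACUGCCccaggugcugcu
The heptamer complementary to the 5p seed, GGGATGC, was absent from the annotated 3′UTRs of 10 of the 10 clock genes, whereas 11.1% of 14795 expressed genes with an annotated 3′UTR held it. The heptamer complementary to the 3p seed, GGCAGTG, was held by 19.8% of the same genes and by *Per3* alone among the 10, in 1 of its 2 transcripts with a 3′UTR.
*Per3*, miR-324-3p match in capitals: ctcgagatGGCAGTGgagccacc
A match of this kind is a description of the letters and not a measured target site. The members' 3′UTRs differ much in length, from 288 bases in *Nr1d1* to 6831 bases in *Clock*, against a median of 1406 bases over the genes searched. *Per1* lies at chr11:69095217-69109960, 0.902 Mb from *Mir324*, and *Nr1d1* lies on the same chromosome at chr11:98767932-98775333, 28.8 Mb from it, while the other 8 genes are on other chromosomes.

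Promoter windows from 250 bases before to 50 bases after the RefSeq transcription start were searched on both strands for 4 motifs through which the loop is known to act. These were the E-box CACGTG, present in 7.15% of 32851 windows of 300 bases, the D-box TTATGTAA or TTACGTAA (1.06%), the RORE core TAGGTCA or TGGGTCA (6.45%) and the CRE TGACGTCA (1.79%). Of the genes searched, *Arntl*, *Per1*, *Per3* and *Cry1* held a match, and no match overlapped another. The genes searched had 1 to 3 windows each, while the shares above are of single windows. *Arntl* and *Per1* each held their match in 1 of 2 windows. Each is printed with its motif in capitals and read along the strand of its gene.
*Arntl*, RORE core, chr7:113207531-113207557, plus strand: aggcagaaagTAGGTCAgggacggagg
*Per1*, E-box, chr11:69098773-69098798, plus strand: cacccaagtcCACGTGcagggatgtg
*Per3*, D-box, chr4:151044853-151044880, minus strand: gacccgcgcgTTATGTAAggtactcggg
*Per3*, D-box, chr4:151044806-151044833, minus strand: ccgcccgcggTTATGTAAcccccgccgt
*Cry1*, E-box, chr10:85185099-85185124, minus strand: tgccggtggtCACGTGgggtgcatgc
No promoter of *Per2* was searched. Windows of *Clock*, *Cry2*, *Nr1d1*, *Nr1d2* and *Dbp* held none of these letters, which says nothing of the factors outside these windows or on other forms of the motifs.

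Per transcript length, the most abundant clock mRNAs were those of *Nr1d1*, *Dbp* and *Cry2*, and the scarcest were those of *Per2* and *Cry1*. In WT neocortex, *Nr1d1* was at 83.7 ± 7.57 TPM (transcripts per 1000000, mean ± SD, n = 5), *Dbp* at 77.5 ± 5.80 TPM and *Cry2* at 63.3 ± 5.45 TPM, and the ranges of neighbouring genes in this order overlapped. *Nr1d2* at 50.9 ± 3.43 TPM came next with a range that did not reach that of *Cry2*. *Per1* followed at 36.4 ± 10.5 TPM, above the whole range of *Arntl* at 22.2 ± 2.24 TPM. Below these, *Per3* (20.2 ± 1.92 TPM), *Clock* (17.3 ± 1.54 TPM), *Per2* (13.9 ± 2.29 TPM) and *Cry1* (11.3 ± 2.67 TPM) each overlapped the next. The same 3 genes led, and *Per2* and *Cry1* came last, in the other 3 groups. In WT hippocampus, *Nr1d1* was at 61.9 ± 4.33 TPM and *Cry1* at 8.08 ± 1.61 TPM.

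**Figure D1:**
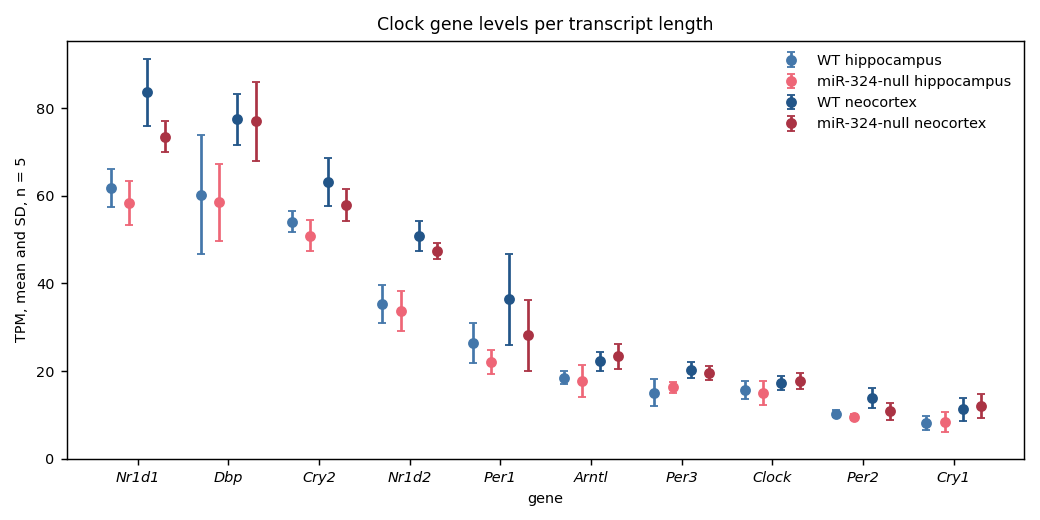
Levels of the 10 clock genes in TPM (vertical axis), with genes ordered by their mean in WT neocortex. Points are group means and bars are SDs over 5 samples. *Nr1d1*, *Dbp* and *Cry2* are the highest in all 4 groups, and *Cry1* and *Per2* are the lowest.

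Of the annotated transcripts, 1 carried about 90% or more of the signal for 5 of the genes. In WT neocortex the share of gene TPM was 97.4% ± 0.586 (SD, n = 5) for *Cry2-201*, 96.7% ± 1.54 for *Nr1d1-201*, 90.2% ± 6.15 for *Clock-205* and 90.0% ± 4.38 for *Nr1d2-201*, and *Per2-201* held 100% of *Per2*. *Per3* was divided between the protein-coding *Per3-201* (39.1% ± 6.55) and the non-coding *Per3-204* (51.6% ± 7.08). *Per1* was divided over 4 protein-coding transcripts and *Dbp* over 3, with SDs of the shares of up to 29.5 percentage points for *Per1-201* in WT hippocampus. For *Cry1*, the short retained-intron transcript *Cry1-202* of 406 bases took 11.1% ± 13.9 in WT neocortex and 20.7% ± 15.6 in miR-324-null neocortex. Shares of overlapping transcripts are kallisto's estimates from shared reads, and gene totals are used in what follows.

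The first question was whether the clock genes have the same level in both tissues. All 10 had a lower mean in the hippocampus than in the neocortex, in either genotype, where 50.1% (WT) and 48.6% (miR-324-null) of all genes tested did so, and on the log2 scale the median difference of the 10 was -0.42 (WT) and -0.25 (miR-324-null), where the medians of all genes tested were -0.00077 and 0.0081. In WT, 9 of the 10 passed the test (adjusted p at most 0.05), all lower in the hippocampus, where 18% of all genes tested were called lower and 36.1% were called in either direction. In miR-324-null mice 4 of 10 passed, all lower, where the share of all genes called lower was 13.6% and the share called in either direction 27.4%. *Nr1d2*, *Nr1d1*, *Cry1* and *Per3* passed in both genotypes. Of all genes, 11.2% were called lower in both. Fold changes are given as hippocampus relative to neocortex, and the differences ran from 29.9% lower for *Nr1d2* to 7.53% lower for *Clock* in WT. Where this comparison and the comparison of genotypes use the same samples, their values are not independent, and they are set side by side only.

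Levels below are TMM-normalised CPM (counts per 1000000), which are comparable between samples of a gene but not between genes, and samples are given in the order of the labels' numbers. Of the activators, *Arntl* encodes BMAL1, the partner without which the loop does not run. Its levels were 28.8, 25.2, 27.7, 29.6 and 28.0 CPM (WT hippocampus) and 23.2, 21.3, 31.8, 27.4 and 30.6 CPM (miR-324-null hippocampus). In the neocortex they were 27.5, 33.8, 31.8, 35.7 and 34.8 CPM (WT) and 33.0, 29.0, 33.3, 32.0 and 39.8 CPM (miR-324-null). The tissues overlapped in both genotypes, through the low WT neocortex sample 1 and through the 2 highest miR-324-null hippocampal samples. *Arntl* was lower in WT hippocampus (log2 fold change -0.23, SE 0.07, adjusted p = 0.0249), and the value in miR-324-null mice did not pass (log2 fold change -0.30, SE 0.12, adjusted p = 0.0729). The WT call was lost without WT hippocampus sample 2 or 3 or WT neocortex sample 2, 4 or 5 (adjusted p = 0.0650, 0.0537, 0.0543, 0.0781 and 0.0606) and with all 20 samples in 1 fit (0.0884), while the difference ran from -0.28 to -0.19 over the 10 fits that left out 1 sample. The miR-324-null value passed without miR-324-null hippocampus sample 3 (adjusted p = 0.0353), with DESeq2 (0.0476), with all 20 samples in 1 fit (0.0223) and with the replicate number as a block (-0.31, adjusted p = 0.0175).

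*Clock*, which encodes the other partner of the activating pair, was the member with the smallest tissue difference in WT. Hippocampal levels were 85.4, 88.9, 84.2, 104 and 88.9 CPM (WT) and 74.9, 73.2, 92.8, 98.5 and 93.7 CPM (miR-324-null). Neocortical levels were 101, 90.8, 93.4, 100.5 and 102 CPM (WT) and 84.8, 96.9, 92.1, 95.7 and 108 CPM (miR-324-null). WT hippocampus sample 4 stood above all the WT neocortex samples, and the miR-324-null hippocampus was split, with samples 1 and 2 low and the other 3 close to the neocortex. Neither tissue difference passed (log2 fold change -0.11, SE 0.06, adjusted p = 0.174 in WT, log2 fold change -0.13, SE 0.09, adjusted p = 0.328 in miR-324-null mice), and the WT value passed only without WT hippocampus sample 4 (-0.17, adjusted p = 0.0176).

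**Figure D2:**
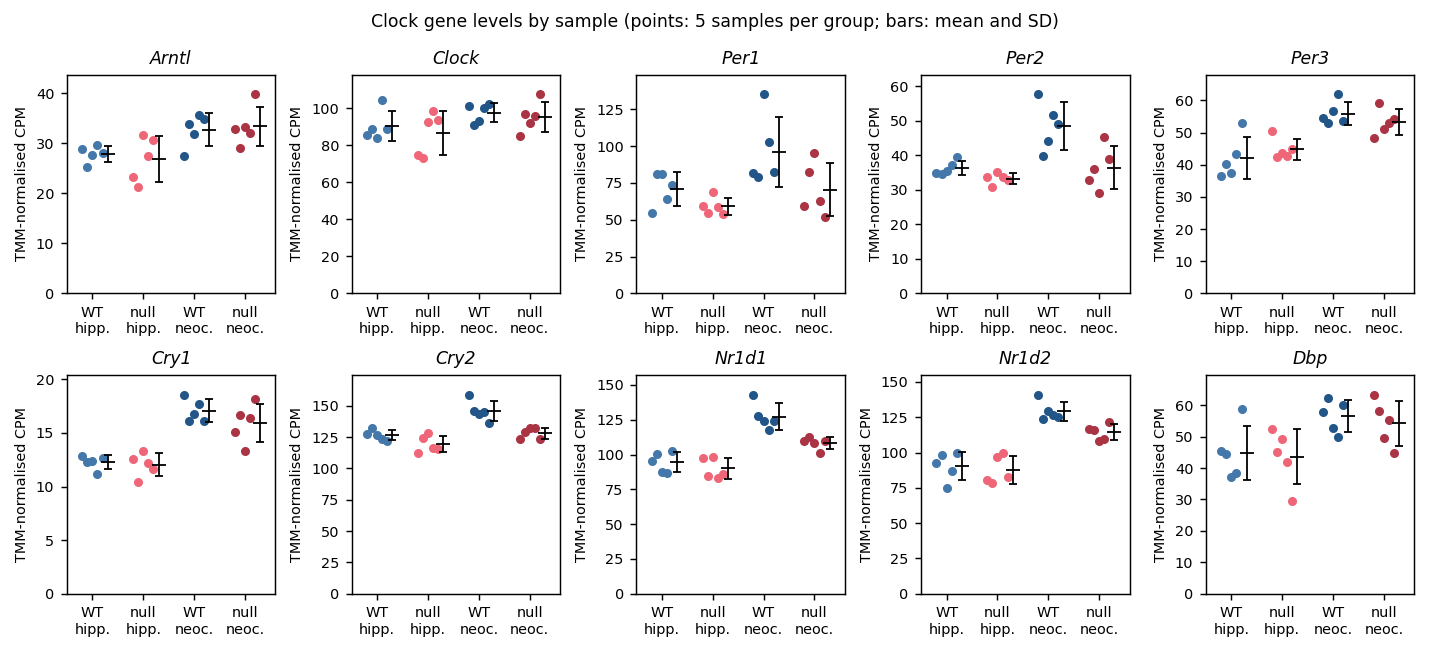
Levels of each clock gene in TMM-normalised CPM (vertical axes, from 0) in the 4 groups of 5 samples. Points are samples in the order of their numbers, and bars beside them are mean and SD. *Cry1*, *Nr1d1* and *Nr1d2* show hippocampal and neocortical samples that do not overlap in either genotype, while *Per1* is widely spread in the neocortex.

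The period genes encode the PER proteins, which carry the repressing complex. *Per1* levels were 54.2, 80.7, 81.1, 64.3 and 73.5 CPM (WT hippocampus) and 59.3, 54.3, 68.8, 58.7 and 53.8 CPM (miR-324-null hippocampus). In the neocortex they were 81.4, 78.7, 135, 102 and 82.6 CPM (WT) and 59.3, 82.4, 95.4, 62.9 and 51.8 CPM (miR-324-null). WT neocortex sample 3 was far above the others of its group, and the tissues overlapped. *Per1* was lower in WT hippocampus (log2 fold change -0.44, SE 0.15, adjusted p = 0.0366) and did not pass in miR-324-null mice (log2 fold change -0.25, SE 0.15, adjusted p = 0.242). The WT call was lost without WT hippocampus sample 1, 4 or 5 or WT neocortex sample 3 or 4 (adjusted p = 0.0861, 0.0803, 0.0555, 0.0923 and 0.0807) and with DESeq2 (0.0568), and without WT neocortex sample 3 the difference fell to -0.28. In miR-324-null mice the difference ran from -0.34 to -0.11 with 1 sample left out.

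*Per2*, the period gene whose loss is best known to disturb the rhythm, was even in the hippocampus and spread in the neocortex. Hippocampal levels were 34.8, 34.5, 35.3, 37.2 and 39.5 CPM (WT) and 33.9, 30.8, 35.1, 33.7 and 32.9 CPM (miR-324-null). Neocortical levels were 57.7, 39.9, 44.2, 51.6 and 49.1 CPM (WT) and 33.0, 36.0, 29.0, 45.3 and 39.0 CPM (miR-324-null). The WT tissues did not overlap, although the lowest neocortical sample came close to the highest hippocampal one, and the miR-324-null tissues overlapped. *Per2* was lower in WT hippocampus (log2 fold change -0.42, SE 0.09, adjusted p = 0.00187) and did not pass in miR-324-null mice (log2 fold change -0.12, SE 0.10, adjusted p = 0.401). The miR-324-null difference ran from -0.20 to -0.03 with 1 sample left out.

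*Per3*, the period gene with the mildest known part in timekeeping, had hippocampal levels of 36.5, 40.2, 37.4, 43.4 and 52.9 CPM (WT) and 50.3, 42.4, 43.5, 42.7 and 44.9 CPM (miR-324-null). Neocortical levels were 54.5, 53.0, 56.7, 61.9 and 53.5 CPM (WT) and 48.4, 59.1, 51.2, 53.1 and 54.2 CPM (miR-324-null). WT hippocampus sample 5 came within a narrow margin of the lowest WT neocortex sample without reaching it, and in miR-324-null mice hippocampus sample 1 overlapped the neocortex. *Per3* was lower in the hippocampus of both genotypes (log2 fold change -0.41, SE 0.09, adjusted p = 0.00284 in WT, log2 fold change -0.24, SE 0.07, adjusted p = 0.0170 in miR-324-null mice). The miR-324-null call was lost with DESeq2 and the Tximport length offset, the study's own combination of tools (-0.18, adjusted p = 0.0973).

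The cryptochromes CRY1 and CRY2 are the proteins that bind and silence the activating pair. *Cry1* levels were 12.82, 12.3, 12.4, 11.2 and 12.6 CPM (WT hippocampus) and 12.6, 10.4, 13.3, 12.2 and 11.7 CPM (miR-324-null hippocampus). In the neocortex they were 18.6, 16.1, 16.8, 17.7 and 16.1 CPM (WT) and 15.1, 16.6, 13.3, 16.4 and 18.1 CPM (miR-324-null). The tissues did not overlap in WT, and in miR-324-null mice the lowest neocortical and highest hippocampal samples came close without crossing. *Cry1* was lower in the hippocampus of both genotypes (log2 fold change -0.47, SE 0.07, adjusted p = 9.50e-05 in WT, log2 fold change -0.40, SE 0.10, adjusted p = 0.00880 in miR-324-null mice). With the length offset the miR-324-null value no longer passed (-0.44, SE 0.19, adjusted p = 0.0748).

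*Cry2*, whose samples lay at most 0.12 from their group means on the log2 scale, had hippocampal levels of 127, 132, 127, 124 and 122 CPM (WT) and 113, 125, 128, 116 and 116 CPM (miR-324-null). Neocortical levels were 159, 146, 144, 145 and 136 CPM (WT) and 124, 129, 132, 132 and 123 CPM (miR-324-null). The WT tissues did not overlap and the miR-324-null tissues did. *Cry2* was lower in WT hippocampus (log2 fold change -0.21, SE 0.04, adjusted p = 0.00272) and did not pass in miR-324-null mice (log2 fold change -0.09, SE 0.05, adjusted p = 0.212).

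The REV-ERB genes encode nuclear receptors that repress *Arntl*, and their levels did not overlap between the tissues in either genotype. *Nr1d1* levels were 95.7, 100.1, 87.6, 87.0 and 103 CPM (WT hippocampus) and 97.6, 84.6, 98.4, 83.3 and 86.1 CPM (miR-324-null hippocampus). In the neocortex they were 143, 128, 124, 118 and 124 CPM (WT) and 109.8, 112, 108, 101 and 109.8 CPM (miR-324-null). Every hippocampal sample was below every neocortical sample of its genotype (log2 fold change -0.43, SE 0.06, adjusted p = 0.000112 in WT, log2 fold change -0.26, SE 0.06, adjusted p = 0.00766 in miR-324-null mice). *Nr1d2* levels were 92.8, 98.5, 75, 86.9 and 99.7 CPM (WT hippocampus) and 80.6, 78.7, 96.8, 99.7 and 82.7 CPM (miR-324-null hippocampus). In the neocortex they were 141, 124, 129, 127 and 125 CPM (WT) and 117, 116, 108, 109 and 122 CPM (miR-324-null). Here too the tissues did not overlap, and the WT difference was the largest of the 10 (log2 fold change -0.51, SE 0.07, adjusted p = 7.83e-05 in WT, log2 fold change -0.38, SE 0.07, adjusted p = 0.00224 in miR-324-null mice).

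*Dbp*, a transcription factor gene whose mRNA swings widely over the day in many tissues, had hippocampal levels of 45.3, 44.4, 37.2, 38.3 and 58.9 CPM (WT) and 52.4, 45.2, 49.2, 42.0 and 29.6 CPM (miR-324-null). Neocortical levels were 57.8, 62.4, 52.8, 49.8 and 60.1 CPM (WT) and 63.4, 58.1, 49.4, 55.3 and 44.9 CPM (miR-324-null). The tissues overlapped in both genotypes, through the high WT hippocampus sample 5 and, in miR-324-null mice, through neocortex samples 3 and 5. *Dbp* was lower in WT hippocampus (log2 fold change -0.34, SE 0.11, adjusted p = 0.0292) and did not pass in miR-324-null mice (log2 fold change -0.30, SE 0.14, adjusted p = 0.123). The WT call was lost without WT hippocampus sample 2, 3 or 4 or WT neocortex sample 1, 2 or 5 (adjusted p = 0.0548, 0.0766, 0.0725, 0.0607, 0.0710 and 0.0650) and with all 20 samples in 1 fit (0.0596), while the difference ran from -0.44 to -0.27 over the fits that left out 1 sample. The miR-324-null value passed with the replicate block (-0.32, adjusted p = 0.0218) and with DESeq2 and the length offset (-0.32, adjusted p = 0.0382).

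Counted over the 10 genes, the tissues did not overlap for 6 in WT (*Per2*, *Per3*, *Cry1*, *Cry2*, *Nr1d1* and *Nr1d2*), where 13.3% of all genes tested were lower without overlap, and for 3 in miR-324-null mice (*Cry1*, *Nr1d1* and *Nr1d2*), where that share was 11%. The exact two-sided permutation test gives 0.00794 for any gene without overlap, the smallest p that 5 against 5 samples allow, so it adds nothing to these counts. The same 6 genes passed the edgeR test in WT in each of the 10 fits that left out 1 sample, as did the 4 genes called in miR-324-null mice in theirs. Some libraries were high in markers of neighbouring tissue. The summed choroid plexus markers, at a median of 95.9 TPM in WT hippocampus, reached 6976 TPM in WT hippocampus sample 3 and 6026 TPM in miR-324-null hippocampus sample 5, and in the neocortex they reached 1289 TPM in miR-324-null sample 2, where the WT maximum was 74.3 TPM. The summed striatum markers ranged from 182 to 457 TPM in WT and from 298 to 861 TPM in miR-324-null neocortex. Without the hippocampal libraries above 1000 TPM of the former and the neocortical libraries above 400 TPM of the latter, a rule chosen after seeing the data, 7 members passed in WT (*Arntl* and *Dbp* were lost) and 1, *Cry1* at -0.51 with an adjusted p of 0.0394, in miR-324-null mice, beside 29.8% and 11.7% of all genes called in those fits. In that smaller miR-324-null fit of 6 samples, which still held neocortex sample 2, *Nr1d2* was at -0.41, *Nr1d1* at -0.28 and *Per3* at -0.33 on the log2 scale (adjusted p = 0.0590, 0.119 and 0.0710). With neocortex sample 2 left out as well, 5 samples remained, 1 of them neocortical and assumed to vary like the others, and none of the 10 passed, beside 9.35% of all genes. *Cry1* was then at -0.57 (adjusted p = 0.0797), *Nr1d2* at -0.45, *Nr1d1* at -0.27 and *Per3* at -0.27, while *Per1* and *Dbp* changed sign, at 0.22 and 0.08.

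**Figure D3:**
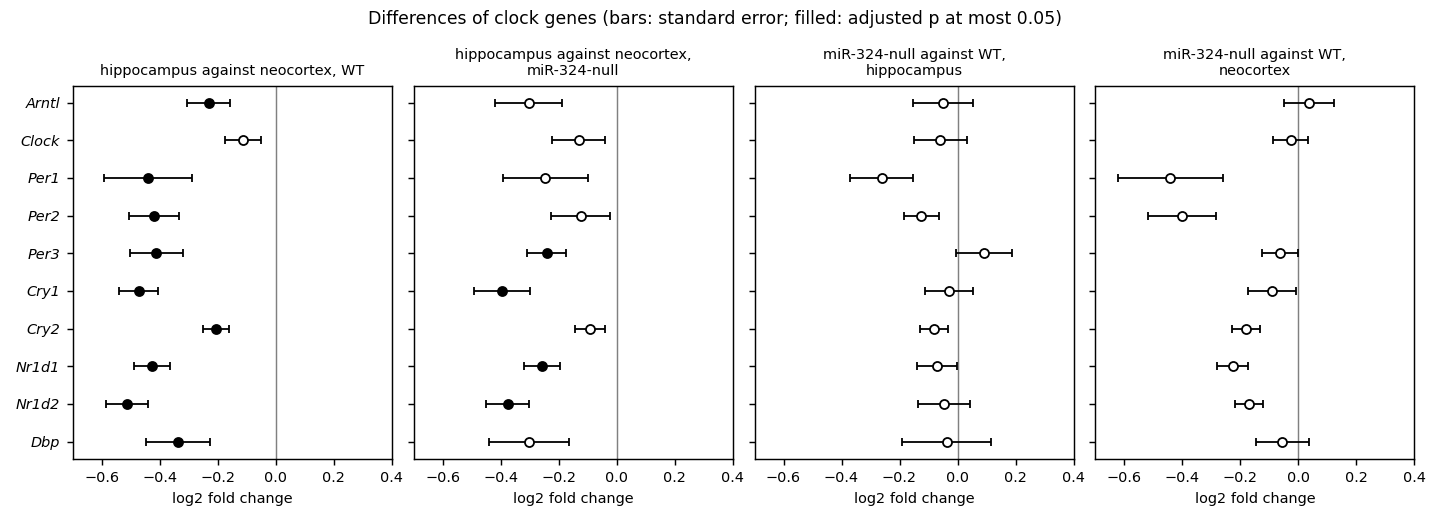
Log2 fold changes of the 10 clock genes (horizontal axes) between tissues in each genotype and between genotypes in each tissue. Points are edgeR estimates, bars are standard errors, and filled points have an adjusted p of at most 0.05. All 10 lie below 0 in both tissue comparisons, with 9 filled in WT and 4 in miR-324-null mice, and no point is filled in the genotype comparisons.

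The tissue labels were checked on markers. The 8 hippocampus markers summed to 220 to 301 TPM in WT hippocampus and to 48.1 to 66.1 TPM in WT neocortex, and the 8 neocortex markers to 105 to 140.5 TPM and 502 to 559 TPM. In miR-324-null mice the hippocampus markers summed to 211 to 278 TPM in the hippocampus and to 52.0 to 112 TPM in the neocortex, where samples 1 to 4, at 87.8 TPM or more, were above all WT neocortex samples. The neocortex markers summed to 107 to 171 TPM and 363 to 625 TPM in the same groups. Taken singly, 6 of the 8 neocortex markers were called lower in the hippocampus and 1 was called higher, in either genotype. This stands beside 36.1% (WT) and 27.4% (miR-324-null) of all genes called in either direction. Of 6 hypothalamus markers, 5 were under 1 TPM on average in both hippocampal groups and 4 in both neocortical groups. Astrocyte markers summed to 621 to 792 TPM in WT hippocampus and 453 to 508 TPM in WT neocortex, and oligodendrocyte markers to 2789 to 4838 TPM and 3173 to 3888 TPM. Of the 5 astrocyte markers, 4 were called higher and 1 lower in WT hippocampus than in WT neocortex. The part of cell makeup in the tissue differences was not tested.

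The second question was whether the clock genes differ without miR-324, with fold changes given as miR-324-null relative to WT. In the hippocampus the edgeR test called 0 of the 10 between genotypes, where it called 0.115% of all genes tested. At an unadjusted p of at most 0.05, 1 of the 10 was lower, *Per1*, beside 5.71% of all genes lower by that measure, and DESeq2 called 0. *Per1* was 70.8 ± 11.5 CPM (mean ± SD, n = 5) in WT mice and 59.0 ± 6.03 CPM in mutant mice (log2 fold change -0.26, SE 0.11, adjusted p = 0.399), and the groups overlapped. The median difference of the 10 genes was -0.05, beside 0.0012 over all genes, and 9 of 10 were below 0, as were 49.7% of all genes. *Per3*, the gene with the 3p seed match, was the one above 0 (log2 fold change 0.09, SE 0.10, adjusted p = 0.778). In the neocortex *Per3* was below 0 (log2 fold change -0.06, adjusted p = 0.737 by edgeR). Among the markers, 8 of 8 striatum markers were below 0 with a median of -0.23 and 2 lower by unadjusted p, and 4 of 5 endothelium markers were below 0 with a median of -0.27 and 3 lower by unadjusted p, with none called. The endothelium markers summed to 135 to 147 TPM in WT and 106 to 154 TPM in miR-324-null hippocampus, and their part in these values was not tested.

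In the neocortex the edgeR test again called 0 of the 10, where it called 0.315% of all genes. The median difference was -0.13, beside 0.0046 over all genes, and 9 of 10 were below 0, as were 48.1% of all genes. At an unadjusted p of at most 0.05, 5 of 10 were lower in miR-324-null samples and none was higher, beside 5.46% of all genes lower by that measure. These were both REV-ERB genes, *Cry2*, *Per1* and *Per2*. *Nr1d1* was 127 ± 9.45 CPM (WT) and 108 ± 4.33 CPM (miR-324-null) (log2 fold change -0.23, SE 0.05, adjusted p = 0.115), *Nr1d2* 129 ± 6.84 and 114 ± 5.53 CPM (log2 fold change -0.17, SE 0.05, adjusted p = 0.185), and *Cry2* 146 ± 8.11 and 128 ± 4.37 CPM (log2 fold change -0.18, SE 0.05, adjusted p = 0.156). For these 3 genes every miR-324-null sample was below every WT sample, beside 1.29% of all genes that were lower without overlap. The exact two-sided permutation p of any such gene is 0.00794, the smallest possible, so it adds nothing to the lack of overlap.

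*Per1* and *Per2* showed the largest mean differences in the neocortex together with the widest spread. *Per1* was 96.0 ± 23.8 CPM (WT) and 70.4 ± 18 CPM (miR-324-null) (log2 fold change -0.44, SE 0.18, adjusted p = 0.350), and *Per2* was 48.5 ± 6.84 and 36.5 ± 6.19 CPM (log2 fold change -0.40, SE 0.12, adjusted p = 0.193). Both overlapped between genotypes, *Per2* only through miR-324-null sample 4, which lay above 2 of the WT samples. With 1 sample left out the difference of *Per1* ran from -0.58 to -0.28, and no such fit called it. The other 5 genes, *Arntl*, *Clock*, *Per3*, *Cry1* and *Dbp*, had differences from -0.09 (*Cry1*) to 0.04 (*Arntl*) on the log2 scale, with SEs of 0.06 to 0.09.

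The neocortical calls depended on the tool. DESeq2 called 2 of the 10, *Nr1d1* (adjusted p = 0.0106) and *Cry2* (0.0212), and it did so also with the Tximport length offset (0.0157 and 0.0472), while it called 240 genes in all beside 47 with edgeR. The edgeR test called *Nr1d1* when miR-324-null neocortex sample 5 was left out (adjusted p = 0.0444), a fit in which it called 566 genes. Tissue markers moved with genotype in these samples: all of 8 striatum markers were higher in miR-324-null than WT neocortex, 7 of them at an unadjusted p of at most 0.05, and 7 of 8 neocortex markers were lower, with sums of 363 to 625 TPM beside 502 to 559 TPM in WT. Hippocampus markers were higher too, 6 of 8 at an unadjusted p of at most 0.05 with a median of 0.88 on the log2 scale, as were choroid plexus markers, 4 of the 4 tested with a median of 1.67, and the adjusted test called no marker of these 4 lists. None of the 8 striatum markers was at 0 or under 1 TPM in a group. Without the 4 libraries above 400 TPM of striatum markers, *Nr1d1* was at -0.20, *Cry2* at -0.21, *Nr1d2* at -0.14, *Per2* at -0.43 and *Per1* at -0.58 on the log2 scale, and with the log2 striatum marker sum as a covariate they were at -0.19, -0.21, -0.09, -0.19 and -0.65. With the hippocampus marker sum as the covariate they were at -0.25, -0.22, -0.15, -0.36 and -0.61, and with miR-324-null sample 2 left out beside the 4 libraries, which leaves 1 miR-324-null sample, at -0.22, -0.25, -0.11, -0.38 and -0.96. None of the 10 was called in the first 3 of these fits, and the last, in which the WT samples alone give the spread, is given as values only. How much of the differences goes with the dissection was not tested further.

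Whether the genotypes differ by tissue was tested as an interaction over all 20 samples. None of the 10 was called by edgeR or DESeq2, where edgeR called 0.0195% of all genes, and none had an unadjusted p of at most 0.05, beside 5.57% of all genes. The interaction, the genotype difference of the hippocampus minus that of the neocortex on the log2 scale, was largest for *Per2* (0.29, SE 0.14, adjusted p = 0.890), whose genotype difference was -0.12 (hippocampus) and -0.40 (neocortex). *Nr1d1* had the next lowest p (0.16, SE 0.09, adjusted p = 0.907), at -0.07 and -0.23. Without the libraries high in choroid plexus or striatum markers *Per1* was the larger, at 0.41 beside 0.31 for *Per2*, and with miR-324-null neocortex sample 2 left out as well, where sample 5 is the one library of its group, they were at 0.78 and 0.25, where *Per1* was at 0.19 with all samples. With 1 sample left out the interaction of *Per1* ran from 0.03 to 0.32. The larger number of tissue calls in WT than in miR-324-null mice is therefore not shown to be a difference between genotypes.

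A further 36 genes of the clock pathway were taken as a fixed list (other activators, ROR factors, PAR-bZIP factors, kinases, ligases and metabolic partners). None of the 36 was called between genotypes by edgeR in the hippocampus or in the neocortex, beside 0.115% and 0.315% of all genes. At an unadjusted p of at most 0.05 none moved in the hippocampus, and 1 was higher and 3 were lower in the neocortex, beside 6.74% of all genes higher and 5.46% lower by that measure. DESeq2 called 1 of the 36, *Bhlhe40*, lower in miR-324-null neocortex, beside 1.61% of all genes called by that tool, a gene named here after its value was seen that encodes a repressor of E-box genes (log2 fold change -0.40, SE 0.09, adjusted p = 0.0881 by edgeR). Between tissues in WT, 7 were higher and 12 lower in the hippocampus, where 36.1% of all genes were called and 18% were called lower. *Rorb* and *Rora*, which encode ROR activators of the RORE, were lower (log2 fold change -1.35, SE 0.09, adjusted p = 1.30e-07 and log2 fold change -1.02, SE 0.10, adjusted p = 2.82e-06), as were *Npas2*, a relative of *Clock* that also pairs with BMAL1 (log2 fold change -0.81, SE 0.08, adjusted p = 4.04e-06), *Hlf*, a PAR-bZIP factor gene related to *Dbp* (log2 fold change -0.73, SE 0.07, adjusted p = 5.35e-06), and *Prkaa2*, which encodes a catalytic subunit of AMPK (log2 fold change -0.72, SE 0.08, adjusted p = 8.16e-06). In miR-324-null mice 4 were higher and 10 lower, where 27.4% of all genes were called and 13.6% called lower, among them *Rorb* (-1.15), *Rora* (-1.01), *Npas2* (-0.67) and the casein kinase gene *Csnk1e* (log2 fold change -0.43, SE 0.07, adjusted p = 0.000622), while *Nampt*, a gene of NAD synthesis, was higher (log2 fold change 0.26, SE 0.05, adjusted p = 0.00153), a call lost in the 6 samples without the libraries high in the markers above (0.28, adjusted p = 0.0758). Members of this list lay on both sides of 0, with a median of -0.08 in WT and -0.10 in miR-324-null mice.

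Because *Per1* and *Per2* are also induced by neuronal activity and by glucocorticoids, lists of 10 genes known for each were read beside them. Of the activity-induced genes, *Egr1*, which encodes an early response transcription factor, was called lower in miR-324-null neocortex. Its levels there were 485, 472, 549.8, 409 and 449 CPM (WT) and 176, 258, 294, 173 and 352 CPM (miR-324-null). The groups did not overlap (log2 fold change -0.91, SE 0.17, adjusted p = 0.0486), but the call was lost in 9 of 10 fits that left out 1 sample, each but the one without miR-324-null neocortex sample 5, with adjusted p from 0.0704 to 0.106 in the 9 and 0.00387 in the other, while the difference stayed between -1.06 and -0.80. The call held with DESeq2 (0.00319) and with the length offset (0.00369). It held with the replicate block too (adjusted p = 0.0356), but here the block joins WT and miR-324-null mice that share only a number. The call was lost with all 20 samples in 1 fit (0.102). It was lost too without the libraries high in striatum markers (-0.63, adjusted p = 0.405) and with the striatum covariate (-0.85, SE 0.23, adjusted p = 0.550) or the hippocampus covariate (-0.61, adjusted p = 0.430), and with miR-324-null sample 5 as the one miR-324-null library left the difference was -0.43. The list's median was -0.54 in the neocortex, with 9 of 10 below 0 and 3 lower by unadjusted p (5.46% of all genes), and -0.33 in the hippocampus, with 10 of 10 below 0 and none called by edgeR or DESeq2, nor by edgeR at an unadjusted p of at most 0.05. Between tissues, 5 of the 10 activity-induced genes were called lower in the hippocampus in WT (3 with DESeq2) and 2 in miR-324-null mice, beside 18% and 13.6% of all genes called lower. Of the 10 glucocorticoid-induced genes edgeR called 0 between genotypes, beside 0.115% (hippocampus) and 0.315% (neocortex) of all genes. DESeq2 called 1, *Fkbp5*, a feedback gene of the receptor, higher in miR-324-null neocortex without the length offset (1.61% of all genes) and none with it (1.26%). By edgeR *Fkbp5*, 1 of these 10 genes, had a log2 fold change of 0.32 there (SE 0.08, adjusted p = 0.134). At an unadjusted p of at most 0.05, 2 of the glucocorticoid-induced genes were higher and 1 lower in the neocortex (6.74% and 5.46% of all genes) and none moved in the hippocampus, with medians of 0.04 (hippocampus) and 0.0065 (neocortex), and 3 were higher and 2 lower in the hippocampus than in the neocortex of both genotypes, beside 36.1% (WT) and 27.4% (miR-324-null) of all genes called in either direction. Whether activity, stress or the hour of dissection moved with the *Per* genes was not tested.

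The third question was how far single samples deviated from their group. The coefficient of variation of the 10 genes had a median of 8.24% in WT hippocampus, 9.62% in miR-324-null hippocampus, 6.94% in WT neocortex and 10% in miR-324-null neocortex. Genes between 10 and 150 CPM had medians of 7.33%, 9.05%, 6.72% and 7.62% in the same groups. The most variable member was *Per1* in the neocortex (24.7% in WT, 25.5% in miR-324-null samples) and *Dbp* in the hippocampus (19.3% and 20.2%), and *Cry2* varied by 3.16% in WT hippocampus. Of the 200 deviations from the group means, 190 were within 0.3 on the log2 scale, and the extremes were -0.53 (*Dbp*, miR-324-null hippocampus sample 5) and 0.52 (*Per1*, WT neocortex sample 3). The former sample is a library high in choroid plexus markers (6026 TPM).

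**Figure D4:**
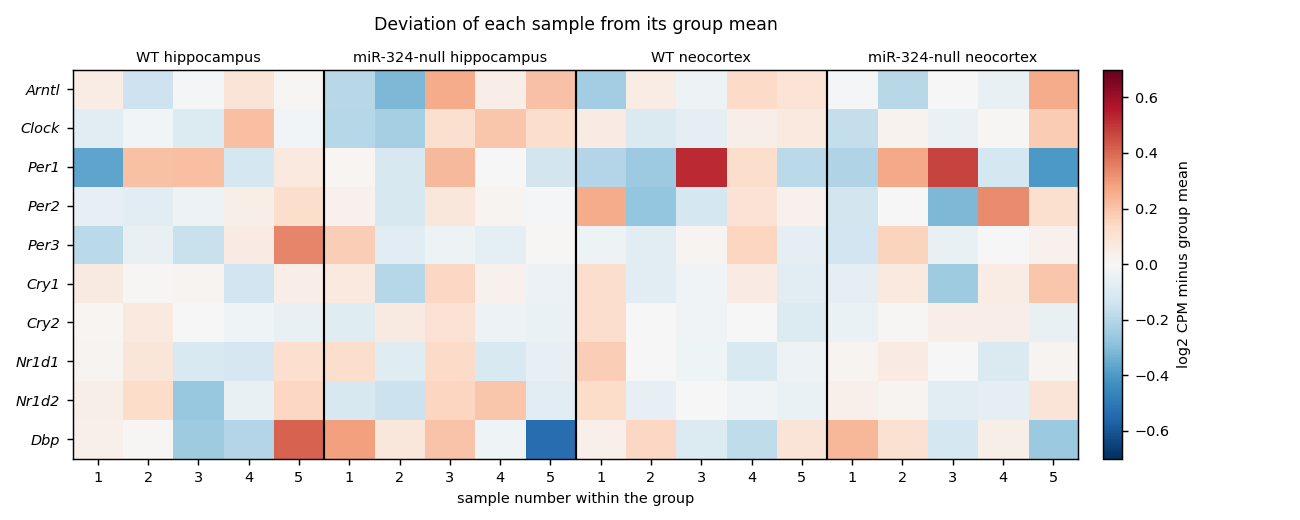
Log2 CPM of each sample minus the mean of its group (colour) for the 10 clock genes (rows) in the 20 samples (columns, grouped and numbered as in the labels). Red is above and blue below the group mean. The strongest colours are in the rows of *Per1* and *Dbp*, and the extremes are -0.53 and 0.52.

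Equal sample numbers in the tissues of a genotype were then compared, although the labels do not say that they belong to 1 mouse. After centring on the group means, *Dbp* in the hippocampus and neocortex had a Pearson r of 0.74 over 10 pairs (exact permutation p = 0.0238, 0.238 after adjustment over 10 genes) and a Spearman rho of 0.62 (p = 0.0791, adjusted 0.264). Without the 2 samples farthest from the median on the hippocampal axis r was 0.56. These were WT sample 5 and miR-324-null sample 5, and the hippocampal library of the latter was high in choroid plexus markers. None of the 10 genes passed the adjustment, and r ran from -0.57 (*Cry1*) to the value of *Dbp*. For *Cry1* the exact permutation p was 0.161 (adjusted 0.419), rho was -0.55 (p = 0.143, adjusted 0.358), and r was -0.75 without the 2 farthest samples and 0.22 on the log2(TPM + 1) scale.

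In the loop, *Arntl* runs opposite to the *Per* genes, the REV-ERB genes and *Dbp* over the day, so the other 9 genes were compared with it in each tissue, 18 relations in all. None passed the adjustment. The highest r was that of *Clock* in the hippocampus at 0.78 (exact permutation p = 0.0527, adjusted 0.473), with a rho of 0.77 (p = 0.0428, adjusted 0.385) and an r of 0.69 without the 2 farthest samples. The lowest was that of *Cry2* in the neocortex at -0.69 (exact permutation p = 0.0478, adjusted 0.473), with a rho of -0.70 (p = 0.0409, adjusted 0.385). That relation rests on 2 samples, miR-324-null sample 5 and WT sample 1, without which r was -0.08. The 5 samples of a single genotype are too few for a correlation of their own.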

How the data were processed

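Whole hippocampus and neocortex RNA (mirVana) was made into TruSeq Stranded mRNA libraries and sequenced on an Illumina NextSeq, and the authors pseudo-aligned the reads to the GRCm38 mouse transcriptome with kallisto. For each transcript the authors deposited estimated counts and TPM, in 1 file per sample, and both were used as deposited. The submitters' processing notes name a human build, but the transcript identifiers are mouse. The kallisto version and the use of strand are not given in the sources used here.

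Of 115270 transcripts, 113580 were matched by identifier to GENCODE M21 (GRCm38) and 1690 were left out. Estimated counts were summed to 35580 genes and rounded, and TPM was summed. Depth was 12752439 to 19617765 estimated counts per sample, and the errors given cover counting error and the spread between samples, not the division of reads among similar transcripts. Genes, windows and seed matches were read by script, with promoters and miRNAs from RefSeq tables of GRCm38.p6 and 3′UTRs from GENCODE.

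Genotype and tissue were taken from the labels. The labels do not say that the 5 samples of a group come from 5 litters or cultures, and p-values measure the spread between these samples. The main test was the quasi-likelihood test of edgeR 4.0.16 (limma 3.58.1, R 4.3.3) with TMM scaling and filterByExpr, each comparison fitted on its own groups and the interaction on all 20 samples, with Benjamini-Hochberg adjustment at 0.05 over all genes tested. This departs from the study's DESeq2, which was run as an alternative (1.42.0, with and without the Tximport length offset). Log2 CPM used a prior count of 2. Single values used exact permutation tests (252 relabellings of 5 against 5, two-sided) and correlations used the 14400 arrangements within genotypes, in Python 3.11.15, numpy 2.4.6, scipy 1.17.1 and pandas 2.3.3. Figures used matplotlib 3.10.9. In simulated counts, of 200 genes given a log2 fold change of 1 edgeR recovered 83% for the genotypes in the hippocampus, 87% in the neocortex, and 91% and 81% for the tissues in WT and miR-324-null mice. The largest differences of the 10 clock genes were smaller, at -0.44 between genotypes and -0.51 between tissues on the log2 scale. These shares therefore do not tell how often differences of that size would be called.

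Named were all 10 members, of the other pathway genes at most 5 with the lowest adjusted p per comparison, genes of the activity and glucocorticoid lists called between genotypes, and the 5 genes most alike *Dbp* and *Arntl*. The members and lists were chosen with earlier results of these data known.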

Additional observations from a re-analysis of the deposited data

Results flagged for a closer look

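Of 40 sets of 5 samples examined (10 genes in 4 groups), 1 held a sample that stood apart by Dixon's criterion, which chance alone meets in about 1 of 20 groups. *Clock* in WT hippocampus sample 4 was at 104 CPM, and its gap to the nearest of the other 4 samples took up a share of 0.765 of the group's range, above the critical value of 0.71. Without this sample *Clock* was called lower in WT hippocampus than in WT neocortex by edgeR (-0.17 on the log2 scale, adjusted p = 0.0176).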

How the results depend on the processing

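In the genotype comparison of the hippocampus the count of clock genes called stayed at 0 in every fit run, while the count over all genes was 139 with DESeq2, 85 with the length offset, 4 with the replicate block, 83 with all 20 samples in 1 fit, and 10 to 31 with 1 sample left out. In the neocortex DESeq2 called 2 clock genes with and without the offset and leave-one-out fits called 0 to 1, beside 240, 184 (offset), 30 (replicate block), 25 (without libraries high in striatum markers), 13 (striatum sum as covariate), 27 (hippocampus sum as covariate) and 27 to 566 (leave-one-out) over all genes. In both genotype comparisons the replicate block joined WT and miR-324-null samples of equal number, which are different mice. The design gives no basis for that block, and its counts are given as values only. For the interaction, all genes called numbered 11 with DESeq2, 0 with the replicate block, 0 without the doubted libraries and 1 to 20 with 1 sample left out. Between tissues the clock genes called were 7 to 8 in WT and 4 to 5 in miR-324-null mice with 1 sample left out, and in miR-324-null mice 1, of 1790 genes, without the doubted libraries and 0, of 1451 genes, without miR-324-null neocortex sample 2 as well. For the tissue fits that left out 1 sample, the counts over all genes are not given here, so their clock gene counts stand without that comparison. With all samples, 5378 genes were called between tissues in WT and 4125 in miR-324-null mice, beside 9 and 4 clock genes. The alternatives without doubted libraries and with marker covariates were chosen after seeing the data. With the replicate block 6 clock genes, of 4041 genes, were called between tissues in miR-324-null mice, *Arntl* (adjusted p = 0.0175) and *Dbp* (0.0218) added, and the block changed no other call of a clock gene. The numbers were not taken to pair samples, since the labels do not say that they do. Same-numbered deviations over all genes correlated at -0.10 to 0.10 (WT) and 0.02 to 0.18 (miR-324-null) between tissues. A sample correlated best with its own number in 2 and 3 of 5 cases. Between genotypes, where equal numbers cannot be 1 mouse, the values were -0.17 to 0.11 (hippocampus) and -0.10 to 0.12 (neocortex). There the own number was best in 1 of 5 cases in each tissue. These values do not settle whether equal numbers in the tissues of a genotype are 1 mouse. DESeq2 without the offset also called *Arntl* between tissues in miR-324-null mice (0.0476), as did the fit of all 20 samples (0.0223), and DESeq2 with the offset called *Dbp* (0.0382).

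Small differences changed sign, none of them called. With the offset *Cry1* was at 0.038 in the hippocampus and 0.041 in the neocortex. Without the doubted libraries *Dbp* in the hippocampus was at 0.013 and, in the neocortex, *Clock* was at 0.039, *Per3* at 0.0010 and *Cry1* at 0.0056. With the striatum covariate *Clock* was at 0.078, *Per3* at 0.00054 and *Cry1* at 0.062, and with the neocortex covariate *Clock* was at 0.034. With the hippocampus covariate *Clock* was at 0.093, *Per3* at 0.0098 and *Cry1* at 0.016. Without the doubted libraries and miR-324-null neocortex sample 2, *Clock* was at 0.11 and *Cry1* at 0.064, and between tissues in miR-324-null mice *Per1* was at 0.22 and *Dbp* at 0.077. With 1 sample left out the ranges were -0.12 to 0.022 (*Arntl*), -0.068 to 0.018 (*Cry1*) and -0.11 to 0.079 (*Dbp*) in the hippocampus, and -0.032 to 0.085 (*Arntl*), -0.070 to 0.0069 (*Clock*), -0.12 to 0.0079 (*Dbp*) in the neocortex. The correlation of *Cry1* between tissues was 0.22 on the log2(TPM + 1) scale. The causes were not tested. No correlation passed under any alternative run.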

Other observations

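Over all 20 samples, after centring on the group means, the genes whose log2 CPM followed that of *Dbp* most closely were *Scnm1* (Pearson r = 0.87), *Rpp25* (0.86), *Sema6a* (0.85), *Tubb3* (0.85) and *Cspg5* (0.84), of 14354 genes with a mean of at least 1 CPM. Within the clock set the closest was *Nr1d1*, at 0.57 and rank 373, while *Arntl* and *Clock* were at -0.39 and -0.45. The genes most alike *Arntl* were *Rai2* (0.81), *Tmem200b* (0.81), *Ly6c1* (0.80), *Gm14440* (0.78) and *Grin2a* (0.78), and *Clock* was at 0.60 and rank 233. These values describe 20 libraries that differ in depth and in dissection markers, and carry no test.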
